A study of Mus musculus with 6 samples.

Results

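The regional homeobox genes described here are the Hox genes of the 4 clusters together with the Dlx, Irx, Nkx and sine oculis-type (Six2 to Six6) families, whose transcription factors mark out territories of the embryonic nervous system from the forebrain to the spinal cord. They were chosen by name, as the probes whose annotated symbol opened with one of these family names, apart from a further Nkx gene not analysed here. Earlier results of these data were known when this rule was set. The choice gave 98 probes for 71 genes, of 18295 genes measured. Of these, 65 are named as members of the homeobox families and 6 as antisense or opposite-strand transcripts beside them. One of those 6, annotated as Six6os1 and listed by RefSeq as 4930447C04Rik, is a protein-coding gene outside the homeobox class that lies opposite Six6.

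The cells were Pitx3-GFP neurons sorted by flow cytometry from dissected E14.5 mouse brain, so both genotypes carried a GFP allele at the Pitx3 locus. Null cells were Pitx3(gfp/-), called AK in the titles, and were collected as 1 pool. Heterozygous cells were Pitx3(gfp/+), called wt in the titles, and were collected as 3 pools of 69000 to 83000 cells, each from multiple embryos. The null RNA met each heterozygous RNA on a dye-swapped pair of two-colour arrays, 6 arrays in all, and a reading below is the mean raw signal of such a pair. The 3 null readings of a gene come from 1 RNA on different arrays, so their range is technical. Readings from different arrays, and ranges said to overlap or not, are therefore unpaired, while the log2 ratios compare RNAs on the same array. Because the null RNA was a single pool, the spread in the tests of pool averages below is that of the heterozygous pools together with the error of their arrays. The spread between null embryos was not measured. An alternative fit of the 6 arrays, with pool as a random block, also took spread from the difference between the dye-swapped arrays of a pool.

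Homeobox genes of these families are switched on in overlapping stripes along the neural tube. Six3 and the Dlx genes are known for the forebrain, Nkx2 and Nkx6 genes for ventral neural territories, Irx genes for the diencephalon, midbrain and hindbrain, and Hox genes for the hindbrain and spinal cord, where genes at one end of a cluster are used further forward than genes at the other. Pitx3 itself is a homeobox gene that midbrain dopaminergic neurons, lens and skeletal muscle use.

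A gene was called present in an RNA when any of its probes exceeded the local background by more than 2 background standard deviations on at least 3 of the 6 arrays. By this rule 62.7% of all genes were present in null RNA and 66% in heterozygous RNA. On single arrays the share ran from 47.8% to 71.8%, and the number of members above background ran from 26 to 38 in null RNA and from 21 to 42 in heterozygous RNA. The Pitx3 probe read 448 in null RNA and 451 in heterozygous RNA and was above background on all 6 arrays in both, with a log2 ratio of -0.08 ± 0.32 (SD, n = 3 pools, limma adjusted p = 0.811). Whether this probe lies within any altered part of the locus is not known, so it does not check the labels. The labels call the cells midbrain dopaminergic neurons. Of 14 markers of that cell type, 10 were present in null RNA and 11 in heterozygous RNA. Tyrosine hydroxylase (Th), its defining enzyme, was above background on 0 of 6 arrays in either RNA. Its brightest probe read 48.2 in null RNA and 49.8 in heterozygous RNA, over backgrounds of 41.3 and 40.7. Whether this probe detects the transcript was not tested, so the reading does not show that the cells lacked Th.

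Members of every family were seen, though a smaller share than of all genes. Members present numbered 32 of 71 (45.1%) in null RNA and 35 of 71 (49.3%) in heterozygous RNA, below the shares of all genes given above. Where all 6 arrays were required the order of the genotypes turned round, with 25 members in null RNA and 20 in heterozygous RNA. The same 32 were present in both, 36 in neither, and 0 in null RNA only. The remaining 3, the HoxC genes Hoxc6 and Hoxc10 and the opposite-strand transcript Six3os1, were present in heterozygous RNA only. These 3 are 4.23% of members, near the 4.55% of all genes seen in heterozygous RNA only, and 1.26% of all genes were seen in null RNA only. Each of the 3 lay at the edge of the rule, with 1 of 6 arrays above background in null RNA against 3, 4 and 3 of 6 in heterozygous RNA.

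**Figure D1:**
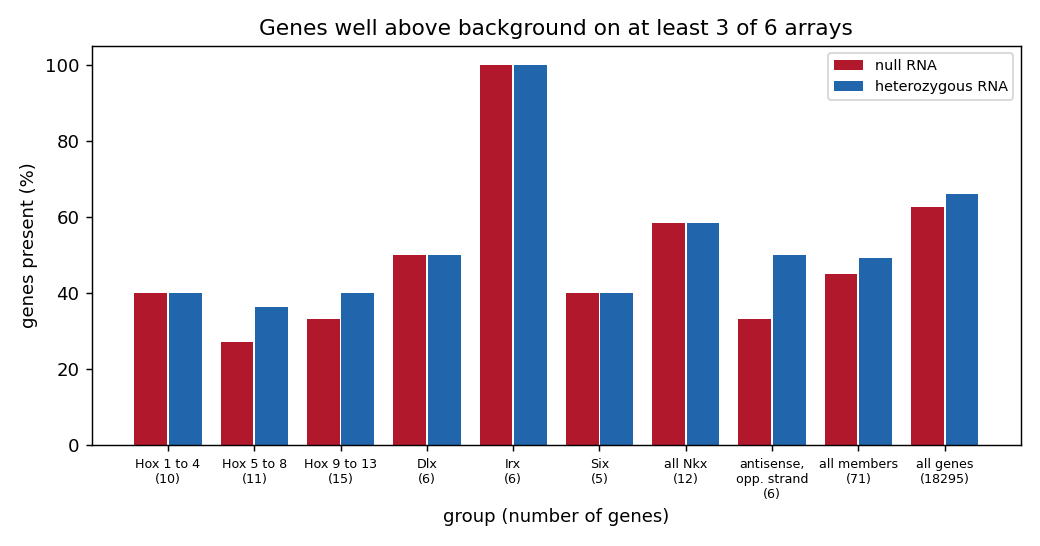
Percentage of genes present (vertical axis, %) in each family, in all 71 members and in all 18295 genes, with null RNA as the left bar and heterozygous RNA as the right bar. All 6 Irx genes were present in both RNAs, and the 3 Hox paralog classes lay between 27.3% and 40%, below the 62.7% and 66% of all genes.

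The families differed in how many members were seen. All 6 Irx genes, 3 of 6 Dlx genes, 2 of 5 sine oculis-type genes and 7 of 12 Nkx genes were present in both RNAs. Among Hox genes, 12 of 36 were present in null RNA and 14 of 36 in heterozygous RNA. Paralog groups 1 to 4, which serve the hindbrain, gave 4 of 10 in both RNAs. Groups 5 to 8 gave 3 of 11 in null RNA and 4 of 11 in heterozygous RNA, and groups 9 to 13, used in the trunk and tail, gave 5 of 15 and 6 of 15. By cluster, HoxA had 5 of 10 and HoxD 3 of 9 in both RNAs, HoxB had 4 of 10 in both, and HoxC had 0 of 7 in null RNA and 2 of 7 in heterozygous RNA. These are counts in 1 null RNA and 3 heterozygous RNAs, with no test.

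Signal among present members was mostly low. Irx1 was the brightest, at 28.5 times background in null RNA and 25.2 times in heterozygous RNA. It was followed by Six3 at 8.33 and 7.85 times, and by Nkx2-4 at 6.27 and 5.77 times. Only 13 members reached 2 times background in both RNAs, and 11 present members stayed under 1.5 times in both. Brightness of a microarray spot depends on its probe, so this order describes signal and does not rank transcript numbers. The arrays' background therefore limits the precision for most members.

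**Figure D2:**
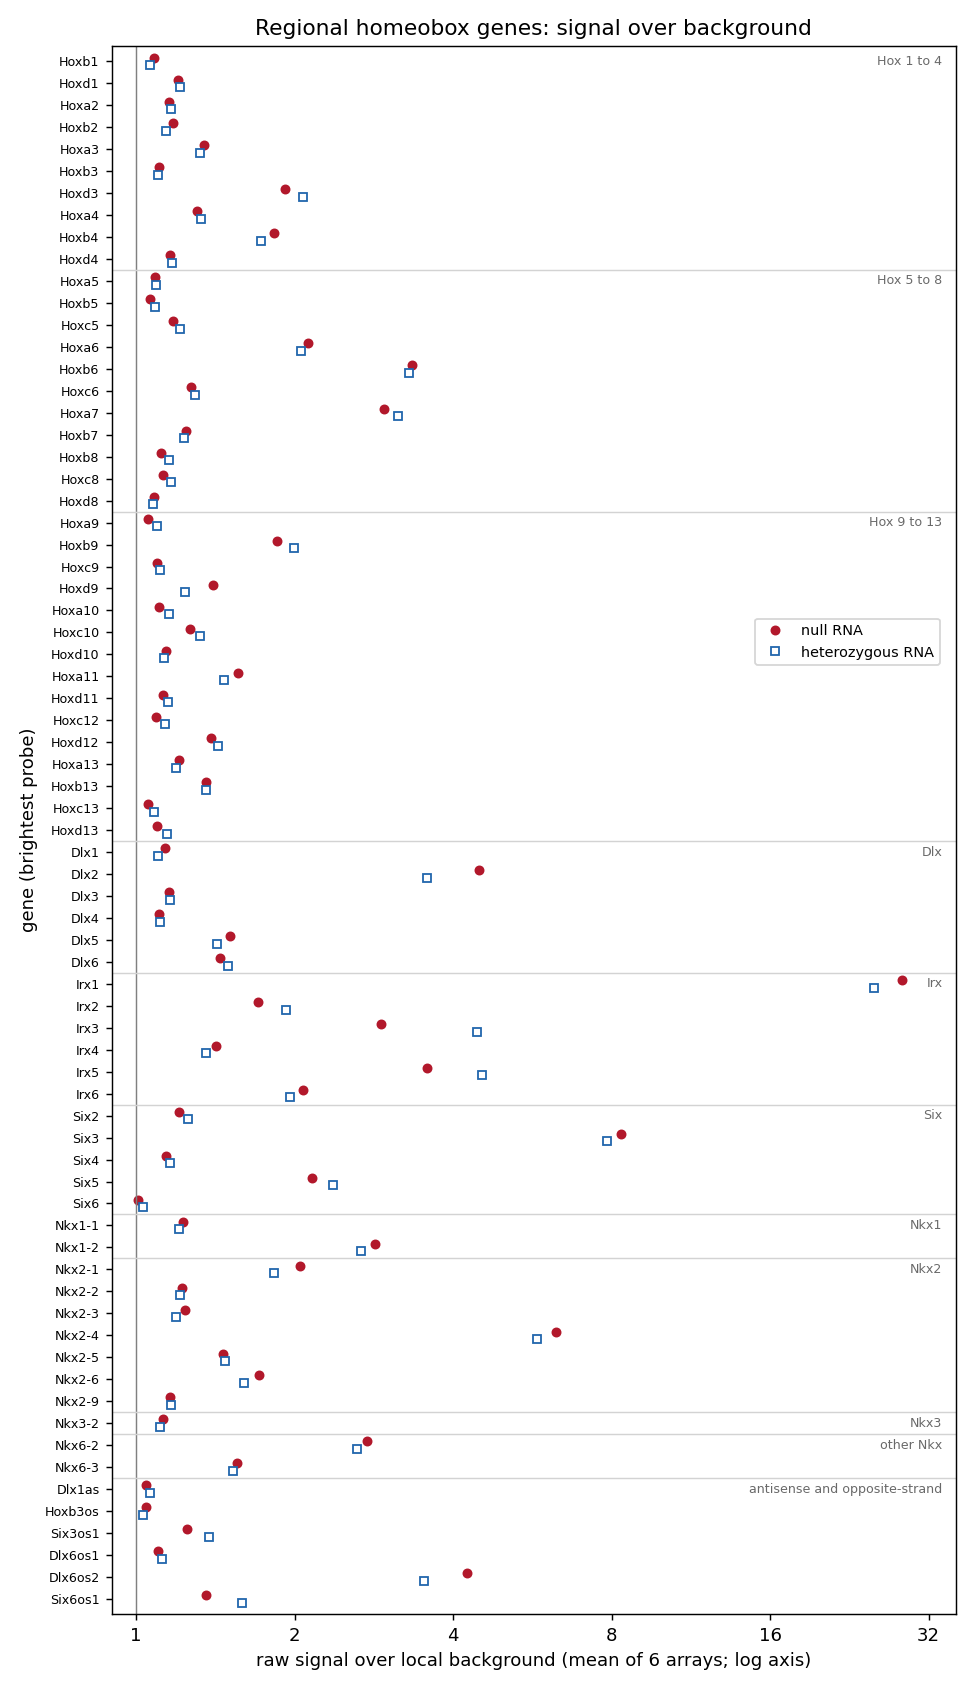
Raw signal divided by local background (horizontal axis, log scale, mean of 6 arrays) for the brightest probe of each of the 71 members, with null RNA as filled circles and heterozygous RNA as open squares. Irx1, Six3 and Nkx2-4 stand furthest to the right, and members present in neither RNA reach at most 1.24 times background in null RNA and 1.25 times in heterozygous RNA.

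Members present in neither RNA were Dlx1, Dlx3, Dlx4, Six2, Six4, Six6, Nkx1-1, Nkx2-2, Nkx2-3, Nkx2-9, Nkx3-2, 22 Hox genes and the transcripts Dlx1as, Dlx6os1 and Hoxb3os. The Hox genes among them were Hoxa2, Hoxb1, Hoxb2, Hoxb3, Hoxd1 and Hoxd4 of the anterior groups, Hoxa5, Hoxb5, Hoxb7, Hoxb8, Hoxc5, Hoxc8 and Hoxd8 of the middle groups, and Hoxa9, Hoxa10, Hoxa13, Hoxc9, Hoxc12, Hoxc13, Hoxd10, Hoxd11 and Hoxd13 of the posterior groups. Their signals ran from 1.01 to 1.24 times background in null RNA and from 1.03 to 1.25 times in heterozygous RNA. Hoxa2, Hoxd4, Nkx2-2 and Nkx2-3 passed background on 1 or 2 arrays of null RNA and on 0 of heterozygous RNA, and Hoxb7 and Hoxd13 on 0 arrays of null RNA and on 2 and 1 of heterozygous RNA. None of these 6 gave a bound above 1-fold, so no fold is given. At this signal a low level cannot be told from no transcript.

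The direct comparison of the genotypes called few members. The ratio of null to heterozygous RNA was tested for every gene with limma on the 3 pool averages, and 908 of 18295 genes (4.96%) passed a Benjamini-Hochberg adjusted p of 0.05, with 566 higher in null cells (3.09%) and 342 lower (1.87%). Among the 71 members 1 was higher, Dlx6os2, and 1 was lower, Six6os1, together 2.82% of members, and 0 of the 65 homeobox genes passed. In sorted pools, fewer cells of a type and less RNA per cell cannot be told apart. The median log2 ratio of the 71 members was 0.0067, with 43 above and 28 below 0, against -0.0027 for all genes. At an unadjusted p of 0.05, 9 members (12.7%) passed against 20.5% of all genes. These shares, and those by sign below, include genes present in neither RNA, 36 of 71 members and 5985 of 18295 genes. Among genes present in either RNA, 9 of 35 members passed unadjusted against 3676 of 12310 genes. The 2 called members were among those 35, and all 566 higher and 342 lower genes were among those 12310. The ratio had the same sign on all 6 arrays for 7 members (9.86%) against 20.2% of all genes: Irx3, Irx5 and Six5 were lower in null RNA on every array, against 9.27% of all genes, and Dlx6os2, Hoxd9, Irx4 and the unseen Dlx1 higher on every array, against 10.9%. The background correction added an offset of 50 that draws the ratios of dim probes toward 0, so ratios of most members understate the difference in signal.

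**Figure D3:**
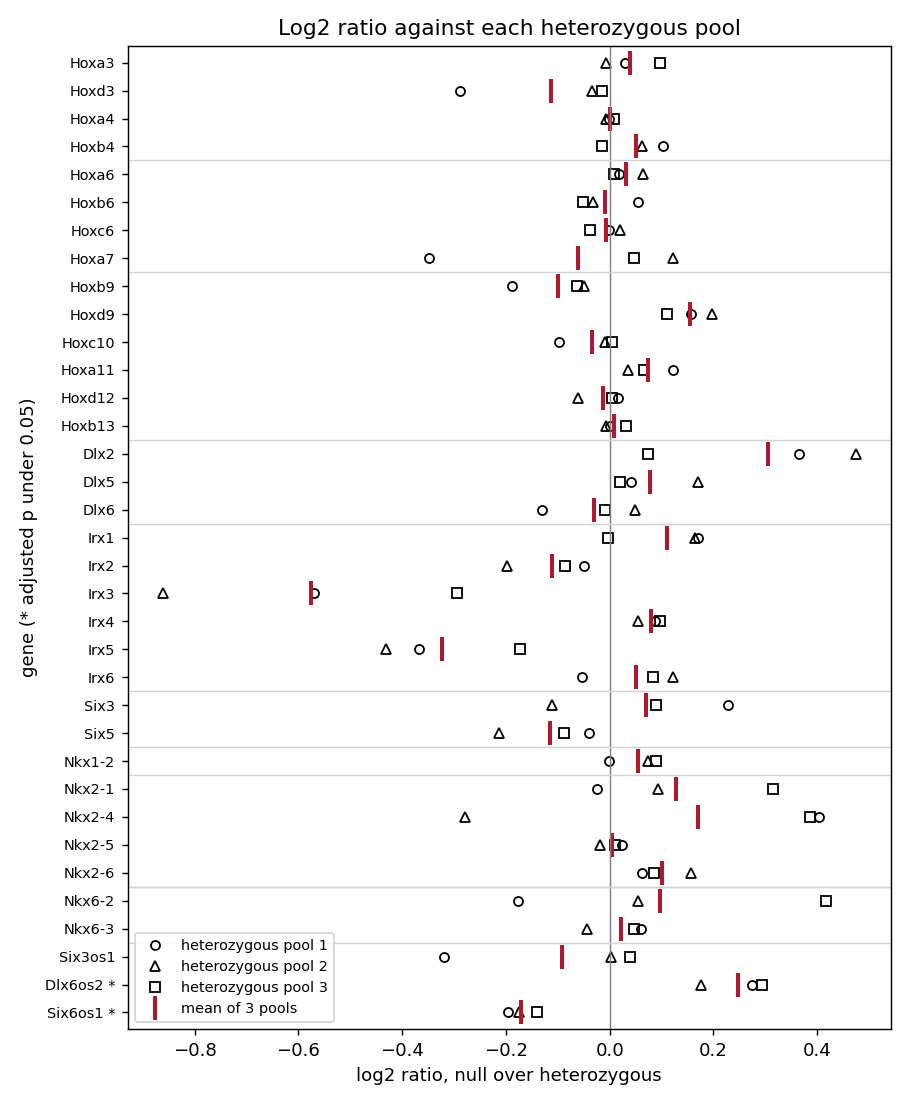
Log2 ratio of null over heterozygous RNA (horizontal axis) for the 35 members present in either RNA, with one symbol for each heterozygous pool and a bar for the mean of the 3 pools. Irx3 and Irx5 lie furthest to the left with all 3 pools below 0, Dlx2 and Dlx6os2 furthest to the right with all 3 above 0, and asterisks mark the 2 members with an adjusted p under 0.05.

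The Irx genes, which encode TALE-class homeodomain proteins of the Iroquois family, held the largest ratio of any member. They stand in separate clusters in the mouse genome, with Irx1, Irx2 and Irx4 in one and Irx3, Irx5 and Irx6 in the other. Irx3, which helps to set boundaries in the diencephalon and the ventral neural tube, read 137, 111 and 114 in null RNA on the arrays of pools 1, 2 and 3, against 186, 229 and 135 in heterozygous RNA, over backgrounds of 41.5 and 41.2. All 3 heterozygous pools exceeded the null RNA hybridised beside them. The third heterozygous reading, 135, lay above the 114 beside it, though under the null reading of 137 on the arrays of pool 1. The log2 ratios were -0.57, -0.86 and -0.29, which average -0.58 ± 0.28 (SD, n = 3), or 0.671-fold. The ratio was below 0 on 6 of 6 arrays but did not pass the test over all genes (limma adjusted p = 0.0886). Without the offset the ratio was -0.84 (adjusted p = 0.0785, a setting chosen after seeing the data). Irx3 passed where the 6 arrays were fitted with a dye term and pool as a random block (0.00938) and with trended robust variance (0.0226), as did Irx5 (0.0184 and 0.0421). The random-block fit called many more of all genes than the fit of pool averages, with the counts given in the last section.

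Irx5, the neighbour of Irx3 in its cluster, was ordered by pool in the same way. Its probe read 169, 148 and 153 in null RNA against 196, 224 and 159 in heterozygous RNA. The lowest heterozygous reading, 159, lay above the 153 beside it, though within the range of null readings across arrays. The log2 ratios were -0.37, -0.43 and -0.17, with a mean of -0.32 ± 0.13 (SD, n = 3, limma adjusted p = 0.0727), and all 6 arrays lay below 0. Irx6, the third gene of that cluster, read 92.0 in null RNA and 87.0 in heterozygous RNA, with ratios of -0.05, 0.12 and 0.08 and an adjusted p of 0.629. The cluster thus held both of the lowest ratios among members and 1 ratio above 0. For both Irx3 and Irx5, pool 2 gave the lowest ratio and pool 3 the one nearest 0.

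The promoter of Irx3 is shown because this gene had the largest ratio, that of Dlx2 because it had the largest ratio above 0 among homeobox genes, that of Dlx6os2 because it was called, and that of Hoxa3 as the only present member whose window held a searched motif. All are RefSeq sequences of GRCm38.p6, 250 bases before the transcript start on the minus strand, and capitals mark a motif match. The windows are chr8:91801655-91801904 for Irx3, chr2:71546755-71547004 for Dlx2, chr6:6865151-6865400 for Dlx6os2 and chr6:52213068-52213317 for Hoxa3.
Irx3: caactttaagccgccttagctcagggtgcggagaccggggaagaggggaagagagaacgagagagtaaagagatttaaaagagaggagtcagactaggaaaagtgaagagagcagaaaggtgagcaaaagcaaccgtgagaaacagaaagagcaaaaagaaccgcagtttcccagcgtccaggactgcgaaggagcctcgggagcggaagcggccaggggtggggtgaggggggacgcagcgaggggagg
Dlx2: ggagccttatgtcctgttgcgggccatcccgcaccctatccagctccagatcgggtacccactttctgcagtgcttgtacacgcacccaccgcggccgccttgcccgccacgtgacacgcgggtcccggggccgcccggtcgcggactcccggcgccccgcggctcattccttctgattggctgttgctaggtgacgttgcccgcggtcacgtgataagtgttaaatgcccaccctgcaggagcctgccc
Dlx6os2: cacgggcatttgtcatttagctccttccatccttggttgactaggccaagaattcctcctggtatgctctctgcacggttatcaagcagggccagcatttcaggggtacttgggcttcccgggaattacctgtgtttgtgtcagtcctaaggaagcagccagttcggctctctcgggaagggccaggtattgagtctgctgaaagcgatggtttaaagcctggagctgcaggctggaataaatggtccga
Hoxa3: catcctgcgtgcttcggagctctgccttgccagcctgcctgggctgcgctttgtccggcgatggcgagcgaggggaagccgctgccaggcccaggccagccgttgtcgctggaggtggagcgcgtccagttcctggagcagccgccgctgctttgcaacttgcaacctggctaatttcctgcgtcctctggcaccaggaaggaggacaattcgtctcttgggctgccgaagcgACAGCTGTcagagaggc

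Both strands were searched for TAATCC, the core bound by Pitx-type homeodomains, for TAATTA, bound by Dlx and many other homeodomains, and for ACANNTGT, bound by Iroquois proteins. Of the 71 members, 46 had a window in the table, and 22 of those were present. TAATCC lay in 1 of the 46 (Dlx6os1), TAATTA in 2 (Dlx6os1 and Hoxd11) and ACANNTGT in 1 (Hoxa3, 17 bases before the start), while 6.25%, 4.84% and 6.31% of 32851 windows of all genes held them. The windows of Irx3, Dlx2 and Dlx6os2 held 0 matches, which says only that these letters are not in these windows. Base composition of the 4 windows ran from 52.4% to 66.4% GC.

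The other Irx cluster gave ratios on both sides of 0. Irx1 read 1342, 1309 and 1079 in null RNA against 983, 1232 and 1016 in heterozygous RNA, and the ranges overlapped. Its log2 ratio was 0.11 ± 0.10 (SD, n = 3, limma adjusted p = 0.300), and it was -0.0036 with the null RNA in Cy5 alone and 0.22 in Cy3 alone, where it passed (adjusted p = 0.0498). Irx2 averaged 72.7 in null RNA and 78.8 in heterozygous RNA, with a ratio of -0.11 ± 0.08 on its brightest probe (adjusted p = 0.226) and of 0.00 on each of its other 2 probes. Irx4, known best from the heart ventricle, was above 0 on 6 of 6 arrays with a ratio of 0.08 ± 0.02, but it stood at only 1.42 times background in null RNA and 1.35 times in heterozygous RNA (adjusted p = 0.171).

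**Figure D4:**
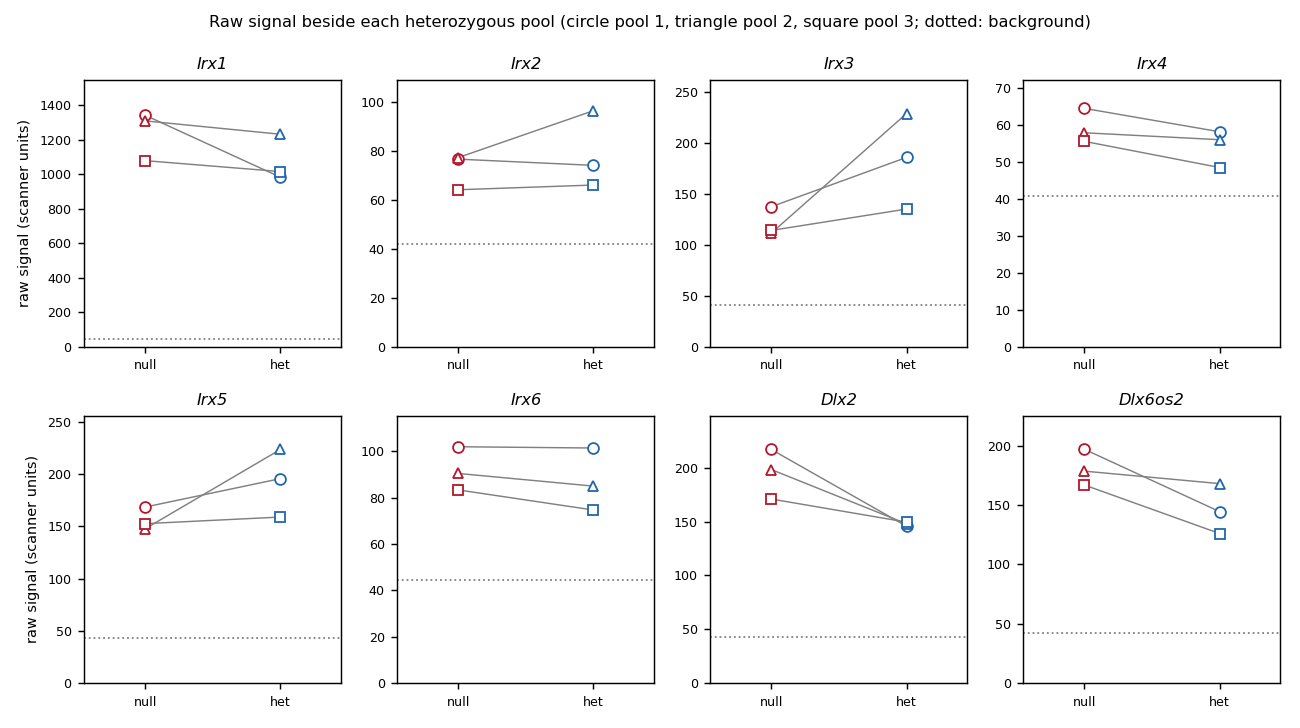
Raw signal (vertical axis, scanner units, mean of the 2 dye-swapped arrays) of the 6 Irx genes, Dlx2 and Dlx6os2, with null RNA on the left of each panel and the heterozygous pool hybridised beside it on the right, joined by a line. Irx3 and Irx5 are lower in null RNA beside every pool, and Dlx2 and Dlx6os2 higher beside every pool, while the dotted line marks the background.

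Six3, which patterns the most anterior forebrain and the eye, was the second brightest member. It read 457, 350 and 304 in null RNA against 337, 402 and 264 in heterozygous RNA, and the ranges overlapped. The log2 ratios of 0.23, -0.11 and 0.09 average 0.07 ± 0.17 (SD, n = 3, limma adjusted p = 0.705), and a second, dimmer probe gave 0.01. Six5, a paralog known for its place beside the myotonic dystrophy kinase gene, averaged 92.0 in null RNA and 98.5 in heterozygous RNA, with a ratio of -0.11 ± 0.09 that was below 0 on 6 of 6 arrays (adjusted p = 0.258).

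Dlx genes specify forebrain GABAergic neurons and act in pairs of neighbouring genes. Dlx2 read 217, 198 and 171 in null RNA against 146, 148 and 150 in heterozygous RNA, so null RNA exceeded the heterozygous RNA beside it in every pool. Its log2 ratios of 0.36, 0.47 and 0.07 average 0.30 ± 0.21 (SD, n = 3), or 1.23-fold, and did not pass the test over all genes (limma adjusted p = 0.167), but passed in limma with pool as a random block (0.0391). The third pool, where the raw signals differed least, gave the smallest ratio. Its dye-swapped arrays disagreed, at 0.19 with null RNA in Cy5 and -0.04 in Cy3, so 1 of 6 arrays lay below 0. The partner of Dlx2, Dlx1, was present in neither RNA.

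The other pair was seen just above background. Dlx5 averaged 64.0 in null RNA and 59.0 in heterozygous RNA, with a log2 ratio of 0.08 ± 0.08 (SD, n = 3, limma adjusted p = 0.398). Dlx6 averaged 60.6 and 60.3 in the same order, with a ratio of -0.03 ± 0.09 (adjusted p = 0.794). Their signals were at most 1.51 times background.

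Dlx6os2, annotated on the array as Dlx6as, is a long non-coding RNA gene that RefSeq places within Dlx6 on the opposite strand. It read 197, 179 and 167 in null RNA against 144, 168 and 126 in heterozygous RNA, so that the lowest null reading lay just under the highest heterozygous one. Null exceeded heterozygous RNA in every pool, with log2 ratios of 0.27, 0.18 and 0.29 and a mean of 0.25 ± 0.06 (SD, n = 3, limma adjusted p = 0.0450), or 1.19-fold. Without any 1 pool the call was lost (adjusted p between 0.0939 and 0.159), as it was with trended robust variance (0.0589), null RNA in Cy5 alone (0.187), plain background subtraction (0.192), median centring (0.239) or no offset (0.131). Apart from trended variance and Cy5 alone, these settings called no gene among all those measured, so the loss there is not particular to Dlx6os2. The strand of the probe is not known here, so signal of Dlx6os2 and of overlapping Dlx6 RNA cannot be told apart.

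Six6os1 was the other call. Its brightest probe read 62.7, 55.9 and 58.8 in null RNA against 67.6, 65.1 and 61.0 in heterozygous RNA, with the heterozygous range overlapping the null one. The log2 ratios were -0.20, -0.17 and -0.14, with a mean of -0.17 ± 0.03 (SD, n = 3, limma adjusted p = 0.0477). The ratio was below 0 on 5 of 6 arrays. The dye-swapped arrays of pool 3 disagreed, at 0.036 with null RNA in Cy5 and -0.315 in Cy3. This SD of pool averages does not show that difference. The probe was above background on 3 of 6 arrays in null RNA and on 6 of 6 in heterozygous RNA, and the other 3 probes of the gene gave -0.01, -0.02 and -0.01 at background level. The call held with trended robust variance (adjusted p = 0.0200) and with each probe fitted on its own (0.0484) and in no other setting tried, and the ratio was -0.59 without the offset and -0.66 with plain background subtraction. Six3os1, the transcript opposite Six3, read 52.7 in null RNA and 56.6 in heterozygous RNA, with a ratio of -0.09 ± 0.20 (adjusted p = 0.648).

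The brightest probes of all 12 Nkx genes had log2 ratios above 0, between 0.0030 and 0.17, against 47.8% of all genes above 0, and 0 of them passed the test. Of the 12, 5 were present in neither RNA, and second probes of Nkx2-4, Nkx2-6, Nkx2-9 and Nkx3-2 lay below 0, at -0.05, -0.0024, -0.04 and -0.0030. Nkx2-1, a determinant of the hypothalamus and ventral forebrain, read 87.8, 83.5 and 78.9 in null RNA against 84.4, 81.7 and 59.1 in heterozygous RNA. Its ratio was 0.13 ± 0.17 (SD, n = 3, limma adjusted p = 0.449), and the ranges overlapped. Nkx2-4, a close paralog of Nkx2-1, read 346, 296 and 283 in null RNA against 226, 387 and 198 in heterozygous RNA. Pool 2 went the other way, with log2 ratios of 0.40, -0.28 and 0.39, and a mean of 0.17 ± 0.39 (adjusted p = 0.666).

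The other Nkx genes were dimmer or varied between pools. Nkx2-6, known from the pharyngeal arches and heart, gave 0.10 ± 0.05 (adjusted p = 0.171), with 77.1 in null RNA and 67.9 in heterozygous RNA on its brightest probe. Nkx2-5, the cardiac member, gave 0.0046 ± 0.02. Nkx1-2 averaged 120 in null RNA and 114 in heterozygous RNA, with a ratio of 0.05 ± 0.05 (adjusted p = 0.422). Nkx6-2, used by ventral neural progenitors, gave -0.18, 0.05 and 0.42 in the 3 pools (mean 0.10 ± 0.30, adjusted p = 0.760), so the spread between heterozygous pools exceeded its mean. Nkx6-3, known from the stomach, gave 0.02 ± 0.06. With the null RNA in Cy3 alone, Nkx1-2 and Nkx2-5 fell below 0, at -0.07 and -0.03.

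Among the 14 Hox genes present in either RNA, 6 had a log2 ratio above 0 and 8 below, with a median of -0.0032. The other 22 were at background, where the offset holds ratios near 0. Hoxb6 was the brightest Hox gene, at 164, 143 and 130 in null RNA against 143, 155 and 126 in heterozygous RNA, with a log2 ratio of -0.01 ± 0.06 (SD, n = 3, limma adjusted p = 0.918). Hoxa7 read 141, 133 and 126 in null RNA against 161, 128 and 115 in heterozygous RNA and gave -0.06 ± 0.25 (adjusted p = 0.837). In both genes the readings of the genotypes overlapped, and pool 1 alone placed Hoxa7 below 0. Hoxa6 gave 0.03 ± 0.03 and Hoxc6 -0.01 ± 0.03.

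Of the anterior groups, which mark rhombomeres and the anterior spinal cord, Hoxd3 had the largest ratio in size. It read 91.6, 87.8 and 71.2 in null RNA against 106, 93.8 and 69.1 in heterozygous RNA, a log2 ratio of -0.11 ± 0.15 (SD, n = 3, limma adjusted p = 0.460) that rests mostly on pool 1 (-0.29, against -0.03 and -0.02). Hoxb4 averaged 78.6 in null RNA and 74.9 in heterozygous RNA, with a ratio of 0.05 ± 0.06. Hoxa3 gave 0.04 ± 0.05, and Hoxa4 gave 0.00 ± 0.01 at 56.8 in null RNA and 54.9 in heterozygous RNA.

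Of the posterior groups, Hoxd9 had the smallest adjusted p of any homeobox member. It read 61.7, 58.5 and 55.6 in null RNA against 52.8, 50.8 and 47.3 in heterozygous RNA, so null RNA exceeded the heterozygous RNA beside it in every pool. The means were only 1.40 times background in null RNA and 1.24 times in heterozygous RNA. Its log2 ratio was 0.15 ± 0.04 (SD, n = 3, limma adjusted p = 0.0696), above 0 on 6 of 6 arrays, and 0.70 without the offset (adjusted p = 0.0661). It passed with no background correction (0.0412), on the authors' normalized values (0.0403), in the random-block fit (0.0121) and with trended robust variance (0.0209). A second Hoxd9 probe gave 0.02 at background. Hoxb9 averaged 76.8 in null RNA and 81.7 in heterozygous RNA, with a ratio of -0.10 ± 0.08 (adjusted p = 0.268), Hoxa11 gave 0.07 ± 0.04 and Hoxc10 -0.03 ± 0.06. Hoxb13 and Hoxd12, the other present members of these groups, gave 0.01 and -0.01. Probe sequences were not used here, and cross-hybridisation between Hox paralogs was not tested.

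**Figure D5:**
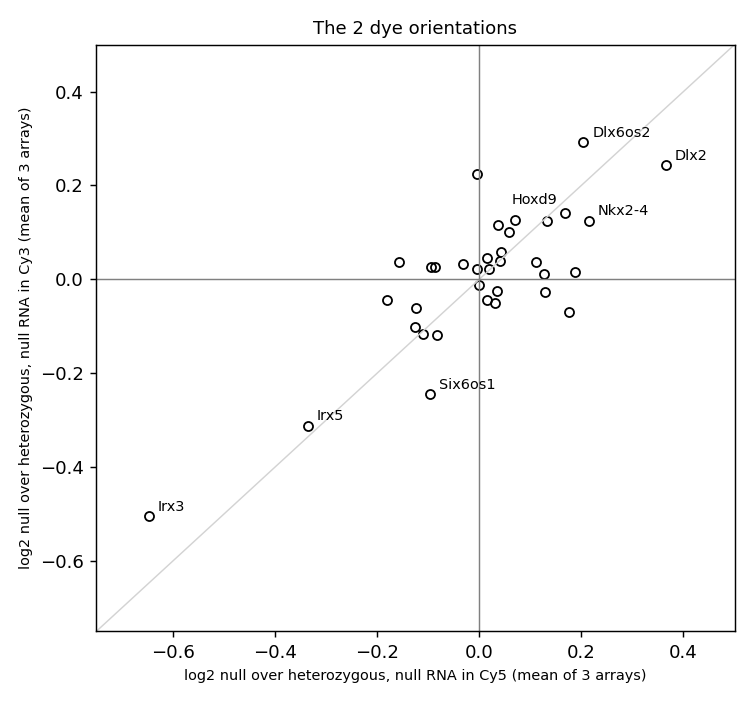
Log2 ratio of null over heterozygous RNA in the 3 arrays with null RNA in Cy5 (horizontal axis) against the 3 arrays with null RNA in Cy3 (vertical axis), for the 35 members present in either RNA, with the line of equality. Irx3 and Irx5 lie low and Dlx2 and Dlx6os2 high in both orientations, and members near 0 scatter across the axes.

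Genes known to work with these families were read from lists chosen with earlier results of the data known. Of 8 measured TALE partners of Hox proteins, 5 were present in null RNA and 7 in heterozygous RNA, and 1 was called: Meis2, a homeobox cofactor used widely in forebrain and midbrain, read 721 in null RNA and 1033 in heterozygous RNA, with log2 ratios of -0.60, -0.70 and -0.54 (mean -0.61 ± 0.08, n = 3, limma adjusted p = 0.0261). The list's median was -0.04, against -0.0027 for all genes. Of 6 Eya and Dach genes, partners of Six3 and its relatives, 5 were present in both RNAs and 0 were called. Dach1 had the largest ratio there, -0.39 ± 0.14 (adjusted p = 0.0548), beside 0.13 for Dach2 and 0.07 for Eya4. As means over all probes of each gene these were -0.10, 0.035 and 0.019, while the brightest probe of Dach1 passed with the filter on dim probes (0.0391), in the random-block fit (0.0143) and with null RNA in Cy5 alone (0.0361).

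Of 6 measured regulators of Hox genes and hindbrain segments, 2 were present in both RNAs and 0 were called. Egr2 (Krox20), which marks hindbrain segments and also serves as an activity-induced gene, gave -0.31 ± 0.10 (adjusted p = 0.0523), and Gbx1 gave 0.03. Egr2 passed in 7 other settings, with adjusted p between 0.0117 and 0.0499. Among 22 midbrain and forebrain homeobox and paired-box genes, 11 were present in null RNA and 10 in heterozygous RNA and 0 were called, with 0.45 ± 0.40 for Pax6, -0.35 ± 0.24 for the midbrain gene En2 and -0.18 for Dbx1. As the mean over its probes Pax6 gave 0.16, and En2 passed with null RNA in Cy5 alone (0.0407). Of 10 Dlx-associated GABAergic genes, 7 were present in both RNAs and 0 were called, with -0.41 ± 0.38 for Gad1, -0.16 for Gad2 and 0.28 ± 0.86 for Isl1. Over all its probes Gad1 gave -0.21, and Gad2 passed with null RNA in Cy5 alone (0.0353). Thus the ratio of Dlx2 lay above 0 while those of Gad1 and Gad2, the enzymes of GABA synthesis, lay below it, and 0 of the 3 passed the test. Of 10 ventral patterning genes, 8 were present in both RNAs and 0 were called, with -0.27 ± 0.10 for Foxa2 (adjusted p = 0.0633), -0.09 for Foxa1 and 0.05 for Gli1. Foxa2 passed with the mean over probes (0.0489), in the random-block fit (0.0119) and with null RNA in Cy3 alone (0.0347).

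Of 64 measured markers of the labelled cell type and of other cells, 4 were called (6.25%, against 4.96% of all genes). Of 10 hypothalamic markers, 6 were present in both RNAs, and Pmch, the melanin-concentrating hormone precursor, was higher at 611 in null RNA and 295 in heterozygous RNA, with a log2 ratio of 0.94 ± 0.30 (n = 3, limma adjusted p = 0.0432). The summed signal minus background of that list ran from 770 to 1280 across arrays in null RNA and from 531 to 830 in heterozygous RNA. Without Pmch the mean sum was 429 in null RNA and 486 in heterozygous RNA, and the other bright members Hcrt and Sim1, named after their values were seen, gave -0.19 and -0.33 (adjusted p = 0.0788 and 0.383). In the dopaminergic list Slc6a3, the dopamine transporter, was lower (-0.42 ± 0.02, limma adjusted p = 0.0260). It was above background on 2 of 6 arrays in null RNA and 6 of 6 in heterozygous RNA. The list's sum ran from 659 to 1537 in null RNA and from 629 to 1475 in heterozygous RNA, with means of 985 and 1116. Pitx3 itself, at raw signals of 448 and 451, is a large part of that sum. Of the 14 ratios, 10 lay below 0 and 4 above, with a median of -0.06. Of 12 lens markers, 7 were present in both RNAs and Cryaa was higher (0.42 ± 0.05, adjusted p = 0.0261; 0.23 as the mean over its probes), with sums of 248 to 432 in null RNA and 190 to 353 in heterozygous RNA. Without Cryaa the mean sum was 241 in null RNA and 242 in heterozygous RNA, and Cryga, named after its value was seen, gave -0.15 (adjusted p = 0.0942). Of 12 muscle markers, 6 were present in both RNAs and Myod1 was lower (-0.22 ± 0.03, adjusted p = 0.0362), with sums of 252 to 530 and 265 to 492. Motor neuron markers (3 of 6 present in null RNA and 5 of 6 in heterozygous RNA) had sums of 203 to 423 and 193 to 436. Most of the signal in these sums was that of Isl1, also in the GABAergic list, with pool ratios of 0.70, 0.84 and -0.71. Of the 6 motor neuron ratios, 3 lay above 0 and 3 below. Mesenchymal markers (6 of 10 in both) had sums of 140 to 268 and 126 to 231, and 0 of either list were called. Whether a different mixture of cells has a part in the ratios of Dlx6os2, Irx3, Irx5 or Nkx genes was not tested.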

How the data were processed

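RNA of sorted Pitx3-GFP neurons was amplified in 2 rounds with T7 polymerase and hybridised to 6 two-colour arrays, per the labels' protocols. Per the file headers, the deposited scanner tables give raw spot and local background intensity for both channels. The authors also deposited normalized intensity values, used as an alternative, and a table of log2 Cy5 over Cy3 ratios that equalled them (within 0.001) at 100% of spots, with medians from -0.00058 to 0.0023 and no sign change for swapped arrays; how these were normalized is not given in the labels. Of 45220 spots, 4046 were controls. Symbols came from the platform annotation for 34186 of 41174 probes and were updated through RefSeq for 3726 of them, while 30365 were current and 95 were kept as given. One further Nkx gene is not analysed here.

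With limma 3.58.1 in R 4.3.3, intensities were corrected by normexp (offset 50), normalized by loess within each array with control spots at weight 0, turned to null over heterozygous and averaged over the dye-swapped pair. A gene was its probe of highest mean intensity. The log2 ratios of 3 pools were tested against 0 with lmFit and eBayes, with Benjamini-Hochberg adjustment over 18295 genes. On simulated data of that size, 18%, 82% and 92% of genes raised by 0.25, 0.5 and 1 (log2) were recovered, and 72% of those lowered by 0.5, with 6 false among 138 calls. The simulated pools were independent and held no error shared through the 1 null RNA. The simulation thus does not give the rate of false genotype calls in the data. Presence was counted from raw intensity. The p-values of the fit of pool averages measure the spread of the heterozygous pools and the error of their arrays, against 1 null pool. Those of the random-block fit also hold the spread between the dye-swapped arrays of a pool. Named were Pitx3, members past the threshold, in each family the 4 present members of largest ratio and the 2 brightest, and from each list those past the threshold or else up to 3 of largest ratio. The members, families and lists were chosen with earlier results of these data known. Irx4, Irx6, Hoxb13 and Hoxd12, and in the lists Th, Hcrt, Sim1 and Cryga, were named after their values were seen. Alternatives changed the background correction, centring, probe choice, dye, variance model, pools and presence rule.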

Additional observations from a re-analysis of the deposited data

Results flagged for a closer look

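Of 51 measures looked at across the 6 arrays, 1 had an array standing far from the others, where about 1 in 20 would do so by chance. For Dlx6os2, the array of pool 2 with null RNA in Cy5 read a log2 ratio of 0.022, while the other 5 arrays read 0.27 to 0.33. The swapped array of the same pool read 0.33, so that pool's mean of 0.18 rests on 1 low array. Without pool 2 the ratio was 0.28 (limma adjusted p = 0.0939).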

How the results depend on the processing

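The log2 ratios pair the RNAs of each array, but heterozygous pools could not be paired with separate null pools. The replicate numbers name pools of 1 group against a shared null pool. The count of 908 genes called became 0 with plain background subtraction, median centring or normexp without an offset (3305, 2604 and 3641 at an unadjusted p of 0.05), 0 without each pool (2956 to 3259 unadjusted), and 2221 in limma with the 6 arrays, a dye term and pool as a random block. The 2 members called became 0 with plain subtraction, median centring, no offset, null RNA in Cy5 only and without each pool, 1 with the filter on dim probes and with the mean over probes, 4 with trended robust variance and 5 with the block on pool. The rise from 2 to 5 members with the block went with the rise from 908 to 2221 of all genes. With the filter on dim probes, 1070 of 12310 genes were called. For the trended variance and the mean over probes, the count of all genes is not given here. The block called Irx3 (adjusted p = 0.00938), Irx5 (0.0184), Dlx2 (0.0391), Hoxd9 (0.0121) and Dlx6os2 (0.0274), and the trended variance called Irx3 (0.0226), Irx5 (0.0421), Hoxd9 (0.0209) and Six6os1 (0.0200). Hoxd9 also passed without background correction (0.0412) and on the authors' values (0.0403). Over all settings the log2 ratio of Irx3 ran from -0.85 to -0.43 and that of Irx5 from -0.45 to -0.27.

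The median ratio of members present (0.021) became 0.071 with plain subtraction, 0.036 with median centring, 0.068 without the offset and 0.0044 with every probe on its own, and 0.0096 to 0.021 without each pool. Members present numbered 49 in null RNA and 52 in heterozygous RNA at 1 background SD, and 25 and 20 where all 6 arrays were required, which turned the order of the genotypes round, as it did for all genes (51.5% and 46.4%). Without each pool they numbered 32 to 34 and 35 to 37. Small ratios changed sign. Hoxa4 was 0.021 without background correction, 0.0018 with median centring, 0.020 on the authors' values, 0.0037 over probes and 0.032 in Cy3. Hoxb6 was 0.021 with median centring and 0.031 in Cy5, where Pitx3 was 0.14 and Irx1 -0.0036. In Cy3 Hoxa7 was 0.037, Hoxc10 0.027, Dlx6 0.026, Nkx1-2 -0.069 and Nkx2-5 -0.026. Without each pool Pitx3 ran from -0.19 to 0.098, Hoxa4 from -0.0044 to 0.0037, Hoxa7 from -0.15 to 0.084, Hoxb6 from -0.042 to 0.011, Hoxc6 from -0.020 to 0.0096, Dlx6 from -0.070 to 0.021, Six3 from -0.011 to 0.16, Six3os1 from -0.16 to 0.021, Nkx2-5 from -0.0045 to 0.016, Nkx6-2 from -0.062 to 0.23 and Isl1 from -0.0061 to 0.77. Plain subtraction and the missing offset act most on dim probes by construction, and the cause of the other changes was not tested. An alternative based on negative control spots was not run, since the annotation used does not name them. The settings without an offset and with a presence limit of 1.5 times background were chosen after seeing the data.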
